A study of Mus musculus with 8 samples.

Results

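The nuclear-encoded subunits of the respiratory chain were examined in mouse liver RNA. Members were taken by gene name: the Nduf names with a letter a, b, c, s or v and a number, Sdha to Sdhd, names that begin with Uqcr, the Cox4 to Cox8 families followed by a, b or c, and names that begin with Atp5, without Ndufaf assembly factors and -ps pseudogenes. The rule gave 78 of the 15210 listed genes, of which 35 belong to complex I, 4 to complex II, 8 to complex III, 14 to complex IV and 17 to complex V. Ndufa4 and Ndufa4l2 were counted with complex IV, where the NDUFA4 protein resides. The names take in Atp5s and Atp5sl, which RefSeq lists as Dmac2l and Dmac2 and which are not subunits of the finished enzyme. A setting that left out names that are not subunits also dropped Cox7a2l and Ndufa4l2, which are counted here with complex IV. In that setting the member median of the log2 fold change was -0.01. The name rule misses the subunit genes Ndufab1, Cox4i1, Cox4i2, Cyc1 and Usmg5, whose values are given beside those of their complexes.

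The livers came from 8 female F1-TKm30 mice. These mice are on the immunodeficient NOG background, which lacks mature lymphocytes, and express a mutant herpes simplex virus thymidine kinase from the transthyretin promoter, which is active in hepatocytes. The series' design text describes both dose groups as this transgenic line, whereas the deposited columns of all 8 mice carry the prefix Wild, which the labels do not explain. The 4 control mice received 0% and the other 4 mice 0.05% of MOCA, 4,4'-methylenebis(2-chlorobenzenamine), an aromatic amine used to cure polyurethane, for 4 weeks. The age was 17 or 21 weeks and is not given mouse by mouse, so age and group cannot be told apart. The treatment label speaks of C57BL mice, against the strain label, which is followed here.

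The respiratory chain sits in the inner mitochondrial membrane. Complex I (NADH dehydrogenase) and complex II (succinate dehydrogenase) pass electrons to coenzyme Q, complex III passes them on to cytochrome c, and complex IV (cytochrome c oxidase) reduces oxygen; complex V, the ATP synthase, uses the proton gradient that complexes I, III and IV build. Most subunits are encoded in the nucleus and imported, and a few core subunits come from mitochondrial DNA. Hepatocytes are rich in mitochondria, and nuclear subunit genes share promoter elements for factors such as NRF1, GABPA, YY1 and the ERR receptors. The mitochondrially encoded subunits were not analysed here, so all values below are of nuclear transcripts.

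Values are CPM scaled by the authors with TMM factors, in which 1 read was worth 0.0581 to 0.0648. Summed over the 15210 listed genes, each library had 15024945 to 17101844 reads. All 4 MOCA libraries (15024945 to 15970453) had fewer reads on listed genes than all 4 control libraries (16077424 to 17101844). Reads outside the listed genes are not counted in these sums. Of 12008 genes tested with limma (Benjamini-Hochberg adjusted p under 0.05), 80 were called, 48 of them higher and 32 lower with MOCA. With columns scaled to equal sums 131 were higher and 38 lower, and with upper quartile scaling 45 were higher and 51 lower. Of the 10 hepatocyte markers all were listed, with a summed value of 105527 to 121093 in control and 91921 to 104999 in MOCA livers. None of 8 striated muscle markers was listed, and the 2 listed of 8 neutrophil and lymphocyte markers summed to under 1 in every mouse.

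Levels of different genes can be compared only per length, and values were therefore divided by the spliced length in kb. Complex IV had the highest median level and complex I the lowest. The median level per kb over tested members was 197 in complex IV, 150.0 in complex V, 137 in complex III, 122 in complex II and 62.2 in complex I. Atp5b, the catalytic beta subunit of the F1 head, had the highest level of all members, with 626 ± 38.6 per kb in control and 544 ± 16.2 per kb in MOCA livers (SD, n = 4 each). The highest members of the other complexes were Uqcrq of complex III (495 ± 70.5 and 457 ± 27.5), Cox6a1 of complex IV (273 ± 39.2 and 253 ± 13.6), Ndufb9 of complex I (176 ± 22.5 and 162 ± 5.29) and Sdha of complex II (157 ± 7.89 and 144 ± 2.85). These per-kb levels depend on which transcript gives the length: with the median length over a gene's protein-coding transcripts in the GENCODE M21 basic set Ndufa4, at 345 per kb, stood highest in complex IV, while the highest members of the other complexes were the same.

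**Figure D1:**
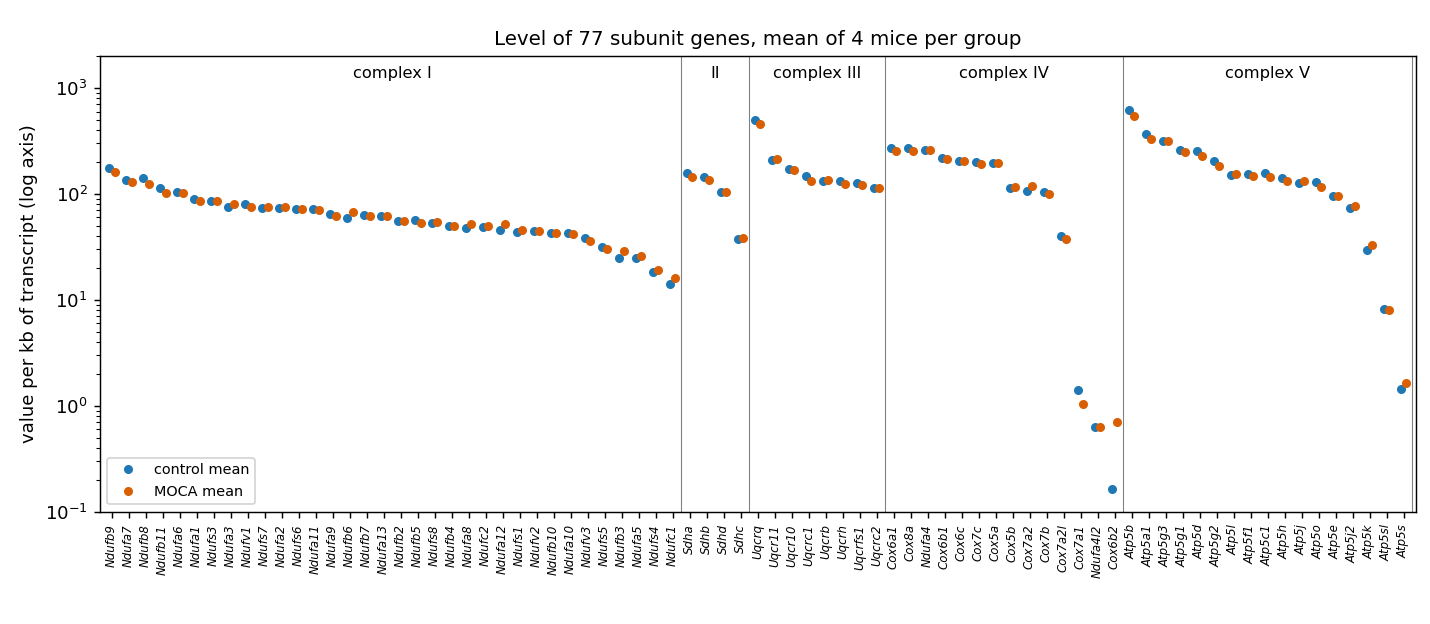
Level of each of 77 genes per kb of spliced length (log axis), as the mean of 4 control mice (blue) and 4 MOCA mice (orange), ordered by level within each complex. The blue and orange points of most genes nearly coincide, Atp5b is the highest, and Cox7a1, Ndufa4l2 and Cox6b2 lie far below the other complex IV members.

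Within complex IV the heart, muscle and testis forms of subunits were near the detection limit. Cox7a2, the widely expressed form of subunit 7a, had 107 ± 15.7 per kb in control livers, whereas the heart and muscle form Cox7a1 had 1.42 ± 0.548. In single mice Cox7a1 was at 0.755, 0.451, 0.309 and 0.720 in controls and 0.127, 0.064, 0.842 and 0.611 in MOCA livers, which overlap. Cox6b2, the testis form of subunit 6b, was at 0 in 2 control mice and at most 0.733 in any mouse, beside a mean of 134 for Cox6b1. Ndufa4l2, a paralogue of Ndufa4 known for induction by hypoxia, was between 0.318 and 0.842 in all 8 mice, while Ndufa4 was between 142 and 187. These 3 genes did not reach a value of 1 in 4 mice and were not tested, so 75 members were tested. Cox6a2 and Cox8b, the heart and muscle forms of subunits 6a and 8, are not analysed here.

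No subunit gene passed the test between MOCA and control livers, in which fewer cells of a type and less RNA per cell cannot be told apart. Of the 75 tested members 0 were called by limma with Benjamini-Hochberg adjustment, against 0.666% of all genes tested (0.4% higher and 0.266% lower in MOCA livers), and the smallest adjusted p was 0.218, for Atp5b. At an unadjusted p under 0.05 there were 2 members, Atp5b and Ndufc1 (17.5% of all genes tested). On the recovered reads edgeR called 0 members (0.675% of all genes), with 2 at an unadjusted p under 0.05 (17.5%). DESeq2 called 0 (3.54% of all genes), with 3 at an unadjusted p under 0.05 (15.8%) and the smallest adjusted p at 0.0615, for Atp5b. The log2 fold changes ran from -0.20 (Atp5b) to 0.23 (Atp5k). Their median was -0.01, beside 0.01 for all genes tested.

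The intervals bound, 1 gene at a time and with the values as deposited, how large a difference these mice could hide. They are not a joint bound over the members and were not counted under other settings. For 74 of the 75 members the limma 95% interval of the log2 fold change lay within 0.5 on either side of 0, a fold of 1.41. The exception was Atp5k, the ATP synthase e subunit, whose interval ran from -0.23 to 0.70. The upper ends of Atp5s (0.49) and Ndufb3 (0.48) lay just inside 0.5. For 73 members the interval included 0. Positive fold changes were found in 32 members and negative ones in 43, and this split turned to 46 and 29 with columns scaled to equal sums, where the median was 0.04 beside 0.05 for all genes. It also rested on single mice: without control mouse 2 it was 52 positive and 23 negative, without control mouse 1 it was 14 and 61, and without control mouse 3 it was 13 and 62. By complex, the medians given below became 0.06, 0.01, 0.03, 0.03 and -0.0036 for complexes I to V with equal column sums, so the signs of complexes II, III and IV turned.

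**Figure D2:**
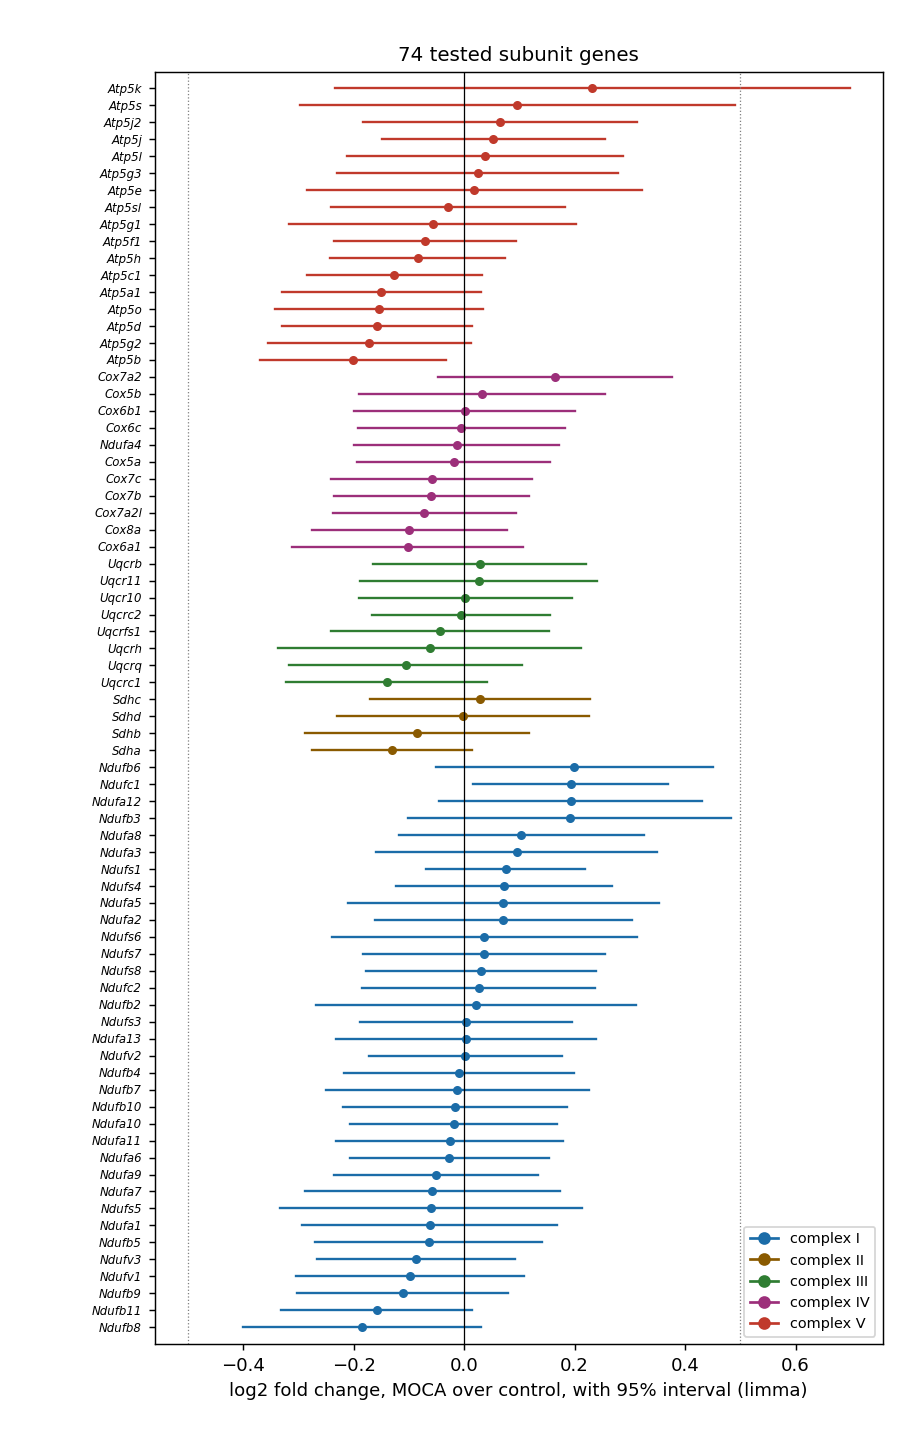
Log2 fold change of MOCA over control livers for 74 tested members, with the limma 95% interval as a bar, ordered within each complex; dotted lines mark 0.5 on either side of 0. Only the bars of Atp5b and Ndufc1 leave out 0, and only the bar of Atp5k crosses a dotted line; 32 fold changes are positive as deposited and 46 with equal column sums.

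Complex I, the largest assembly, had 18 positive and 17 negative fold changes among its 35 members, with a median of 0.00. The 7 conserved core subunits, which carry the flavin and the iron-sulfur clusters, had fold changes between -0.10 and 0.08 and a median of 0.00. Ndufs1, the largest of them, had 112, 117, 104 and 117 in control and 123, 118, 113 and 120 in MOCA livers, and the groups overlapped. Ndufv1, which binds NADH, had 117, 152, 121 and 143 in control and 130, 123, 130 and 112 in MOCA livers, where control mice 2 and 4 were the highest. Ndufs3, Ndufs7 and Ndufs8 had fold changes of 0.00, 0.04 and 0.03. The core genes thus differed between groups by less than the spread of the control mice.

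The supernumerary subunits of complex I surround the core and are needed for assembly and stability. Their 28 fold changes had a median of -0.01. Ndufc1, a small subunit of the membrane arm, was at 16.8, 19.4, 16.2 and 17.6 in control and 19.1, 20.1, 20.3 and 20.9 in MOCA livers. Its MOCA values were higher apart from control mouse 2, which lay above MOCA mouse 1 (log2 fold change 0.19, SE 0.08, limma adjusted p = 0.25). Ndufb8, a membrane arm subunit often used as a protein marker of assembled complex I, was at 85.3, 117, 86.0 and 95.8 in control and 89.9, 81.0, 80.1 and 84.1 in MOCA livers. Its fold change of -0.18 (SE 0.10, limma adjusted p = 0.358) was drawn from groups that overlapped, with control mouse 2 far above the rest. Ndufb11, another membrane arm subunit, had 94.0, 114, 97.5 and 105 in control and 94.4, 97.2, 91.3 and 84.0 in MOCA livers (-0.16, SE 0.08, limma adjusted p = 0.329). Ndufb11 overlaps Rbm10 in RefSeq, and the sources used here do not state whether counting used strand. Ndufab1, the acyl carrier protein that the name rule misses, was at 45.6, 53.2, 37.5 and 45.2 in control and 54.2, 47.5, 45.8 and 45.7 in MOCA livers (0.10, limma adjusted p = 0.674), and the groups overlapped.

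Complex II is the one complex made wholly of nuclear-encoded subunits. Sdha, the flavoprotein that oxidises succinate, was at 435, 486, 441 and 462 in control and 428, 408, 414 and 415 in MOCA livers. Every MOCA value was below every control value, but the difference was small (log2 fold change -0.13, SE 0.07) and did not pass the test (limma adjusted p = 0.337). Sdhb, the iron-sulfur subunit, was at 144, 186, 154 and 176 in control and 164, 140.0, 152 and 164 in MOCA livers. The membrane anchors had fold changes of 0.03 (Sdhc) and -0.0022 (Sdhd). For these 3 genes the groups overlapped, and Sdhc turned to -0.02 without control mouse 1 and to -0.03 without control mouse 3.

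Complex III had 3 positive and 5 negative fold changes among 8 members, and a median of -0.02. Uqcrc1, a core subunit on the matrix side, was at 215, 273, 228 and 256 in control and 232, 211, 216 and 220 in MOCA livers (log2 change -0.14, SE 0.08, limma adjusted p = 0.410). Control mice 2 and 4 were above all MOCA mice, and control mice 1 and 3 were not. Uqcrc2, its partner, had a mean of 216 in control and 215 in MOCA livers, and Uqcrfs1, the Rieske iron-sulfur protein, 173 and 167. Uqcrq and Uqcrh, small subunits, had fold changes of -0.11 and -0.06 and the latter turned to 0.05 without control mouse 2. Uqcrq overlaps Gdf9 in RefSeq. Cyc1, the cytochrome c1 gene that the name rule misses, was at 156, 204, 152 and 185 in control and 162, 164, 158 and 157 in MOCA livers, again with control mouse 2 on top.

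Complex IV had 3 positive and 8 negative fold changes among its 11 tested members, with a median of -0.02. Cox7a2 had the largest, with 60.8, 84.7, 65.3 and 70.5 in control and 77.2, 81.5, 73.8 and 81.2 in MOCA livers (log2 change 0.16, SE 0.10, limma adjusted p = 0.404). Apart from control mouse 2, each control value was below each MOCA value. Cox6a1, the liver form of subunit 6a, was at 157, 187, 137 and 143 in control and 147, 154, 141 and 136 in MOCA livers, which overlapped. Cox8a was at 139, 174, 138 and 149 in control and 142, 141, 141 and 134 in MOCA livers (-0.10, SE 0.08, limma adjusted p = 0.561). The small subunits Cox5a and Cox5b had fold changes of -0.02 and 0.03. Ndufa4 differed by -0.01 and had the narrowest range among MOCA mice of these genes, from 156 to 159. Cox4i1, which the rule misses, was at 237, 337, 263 and 306 in control and 268, 272, 253 and 238 in MOCA livers (-0.14, limma adjusted p = 0.531). Cox4i2, the lung form of the same subunit, which the rule also misses, was at most 0.322 in any mouse and was not tested.

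Complex V had 7 positive and 10 negative fold changes among 17 members, with a median of -0.06 that became 0.00 without control mouse 2. Atp5b was at 1149, 1303, 1143 and 1202 in control and 1072, 1048, 1050.0 and 999 in MOCA livers. All 4 MOCA mice were below all 4 control mice (log2 fold change -0.20, 95% interval -0.37 to -0.03, limma adjusted p = 0.218). Atp5b and Sdha were the 2 tested members without overlap, 2.67% of 75, where 10.5% of all genes tested had none; in both the MOCA values were lower, as in 4.96% of all genes. Atp5a1, the alpha subunit that alternates with beta in the F1 head, was at 864, 1012, 823 and 951 in control and 838, 807, 818 and 816 in MOCA livers. Its fold change was -0.15 (SE 0.08, limma adjusted p = 0.373), and control mouse 3 lay among the MOCA mice. Atp5d, the delta subunit of the central stalk, and Atp5c1, the gamma subunit that turns within the head, had fold changes of -0.16 and -0.13. Usmg5, an ATP synthase subunit gene that the name rule misses, was at 25.6, 30.7, 22.5 and 26.7 in control livers. In MOCA livers Usmg5 was at 30.1, 27.5, 23.3 and 26.1 (0.02, limma adjusted p = 0.936), and the groups overlapped. The 5 genes of the F1 head and central stalk, a subset drawn after their values were known, had 1 positive and 4 negative fold changes and a median of -0.15, beside -0.08 for 4 peripheral stalk genes and 0.03 for 6 membrane sector genes.

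The 3 genes Atp5g1, Atp5g2 and Atp5g3 encode the same mature c subunit of the membrane rotor with different import sequences. Atp5g3 was at 176, 274, 210 and 244 in control and 236, 217, 225 and 231 in MOCA livers, Atp5g1 had a mean of 157 and 148, and Atp5g2 was at 77.2, 101, 89.8 and 95.4 in control and 81.6, 78.5, 78.7 and 82.2 in MOCA livers. As shares of the sum of their values, Atp5g3 made up 47.7% ± 1.65 in control and 49.9% ± 1.25 in MOCA livers, Atp5g1 33.0% ± 2.23 and 32.6% ± 1.5, and Atp5g2 19.3% ± 1.38 and 17.6% ± 0.358 (SD, n = 4 each). None of the 3 shares differed by the exact two-sided permutation test over mice after Benjamini-Hochberg adjustment over the 3: adjusted p was 0.129 for Atp5g2, 0.129 for Atp5g3 and 0.743 for Atp5g1. The smallest unadjusted p this design allows is 0.0286, and a single share at that p does not pass after adjustment. Without control mouse 2, for example, Atp5g2 alone reached 0.0286 in the exact permutation test and had an adjusted p of 0.0857. The 3 shares add up to the whole and are not independent. These shares are not per length and so do not rank the 3 genes: in control livers Atp5g1, Atp5g2 and Atp5g3 made up 33.3%, 26.4% and 40.2% per spliced length of the principal transcript, but 11.1%, 29.5% and 59.4% per median transcript length. When each value was first divided by the median length of the gene's transcripts, a setting added once the values were known, the exact permutation test gave an adjusted p of 0.0429 for Atp5g2 (-2.62 percentage points) and for Atp5g3 (2.77), whereas division by the spliced length of the principal transcript gave 0.129 for both.

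**Figure D3:**
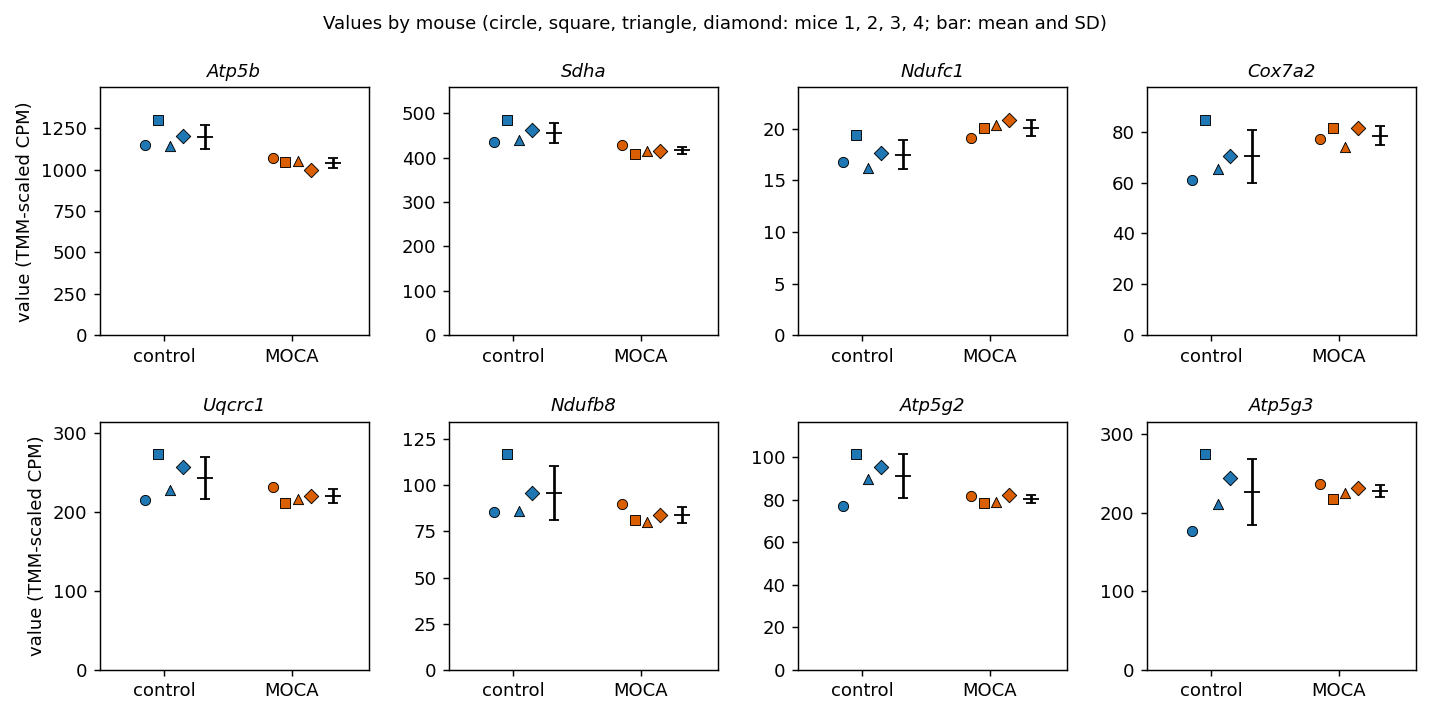
Value in each mouse (TMM-scaled CPM, axes from 0) for 8 members, with circle, square, triangle and diamond for mice 1, 2, 3 and 4 and the bar for mean and SD. The groups are apart for Atp5b and Sdha and overlap for the other 6, and control mouse 2 (blue square) is the highest control in all 8.

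Among the control mice the members moved together across all 5 complexes, while the MOCA mice varied little. Control mouse 2 had the highest value of the 8 mice in 66 of 75 tested members (88%), where it was the highest in 15% of all genes tested. This held for 28 of 35 members in complex I, 4 of 4 in complex II, 8 of 8 in complex III, 11 of 11 in complex IV and 15 of 17 in complex V. The lowest value was in control mouse 1 in 28 members and in control mouse 3 in 27. With columns scaled to equal sums control mouse 2 was still the highest in 48, with upper quartile scaling in 65 and with median of ratios scaling in 66. The pattern was noticed in these data and is given as a description.

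The same is seen in a score, the mean over tested members of the log2 deviation from the average of the 4 controls. Over the 75 members it was -0.14, 0.23, -0.13 and 0.04 in control mice 1 to 4. In MOCA mice 1 to 4 it was 0.01, -0.01, -0.04 and -0.02, so all 4 MOCA mice lay inside the range of the controls. By complex, control mouse 2 scored between 0.18 (complex II) and 0.24 (complex V), and every MOCA mouse lay between -0.10 and 0.04. With columns scaled to equal sums the member scores were -0.09, 0.15, -0.09 and 0.03 in controls and 0.01, 0.06, 0.00 and 0.08 in MOCA mice.

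**Figure D4:**
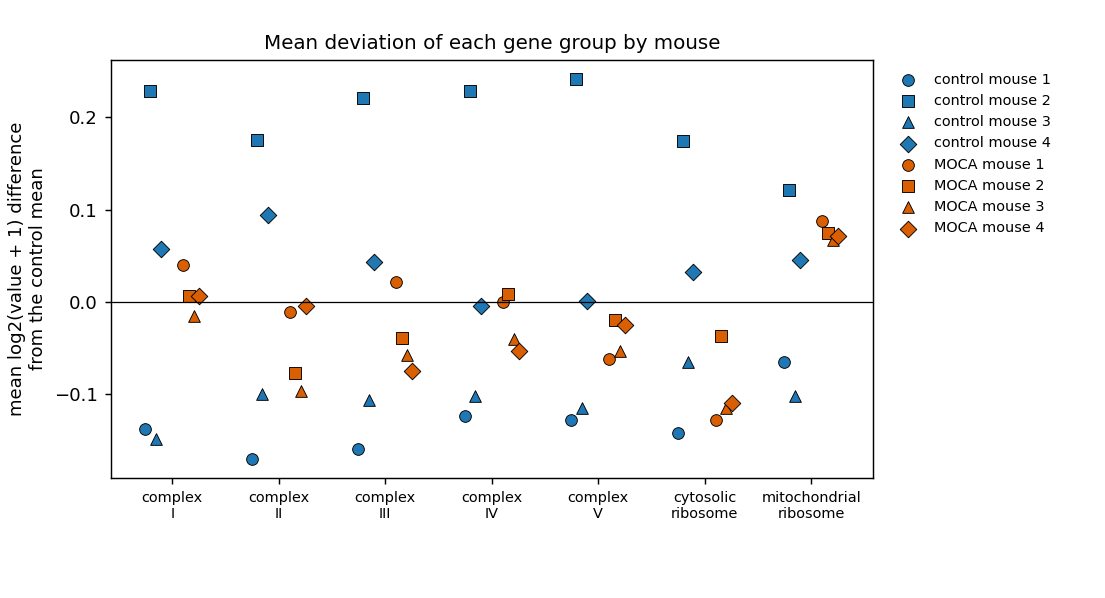
Mean log2(value + 1) difference from the control mean over the tested genes of each complex and of the 2 ribosome lists, by mouse; blue is control, orange is MOCA, and the marker shape gives the mouse number. Control mouse 2 lies at the top in each complex, from 0.18 to 0.24, control mice 1 and 3 at the bottom, and the MOCA mice close together between them.

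The MOCA livers were thus more alike than the control livers for these genes. The SD of log2(value + 1) was larger among control than among MOCA mice in 73 of 75 members (97.3%), against 52.6% of all genes tested. The exceptions were Atp5s and Atp5sl, which are not subunits. Cox7a2l, dropped together with them in the setting without such names, was no exception (SD 0.123 among control and 0.0262 among MOCA mice). The median SD over members was 0.177 among control and 0.0665 among MOCA mice, where all genes tested had 0.143 and 0.136. Without control mouse 2 the SD was larger among controls in 63 of 75 members (47.8% of all genes), with medians of 0.130 and 0.0665, and with columns scaled to equal sums in 62. The complex V gene Atp5k had the largest SD among controls, at 10.7, 18, 7.47 and 7.68 in control and 11.4, 12.5, 12.2 and 13.1 in MOCA livers; it was singled out after its values were seen. The narrower spread with MOCA was not particular to members. The SD of the score was 0.171 among control and 0.0179 among MOCA mice for members. It was 0.102 and 0.00889 for mitochondrial, and 0.136 and 0.0408 for cytosolic ribosomal protein genes. The SD was larger with MOCA for biogenesis regulators (0.00338 and 0.0552), complex II assembly factors (0.0372 and 0.0928) and mitochondrial carriers (0.0557 and 0.0851). Members moved together, so they are not separate observations of spread, and no test of the spread was made. Counting error, computed from the reads on the same scale, had a median of 0.0396 over members in MOCA livers and 0.0382 in control livers. It was as large as the SD among MOCA mice or larger in 12 of 75 members, among them Ndufa4, Atp5o, Cox7a2l and Ndufc1, and in 0 of 75 among control mice.

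**Figure D5:**
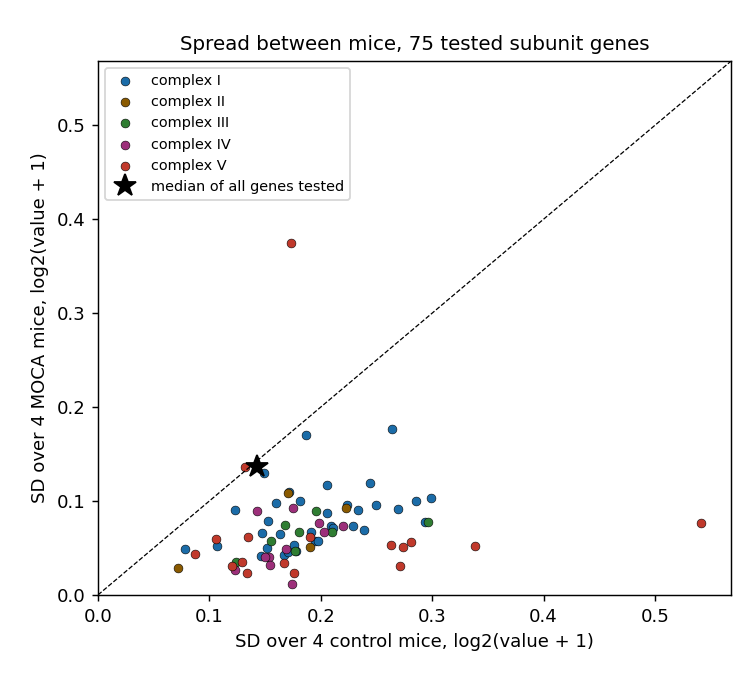
SD of log2(value + 1) over the 4 control mice (x axis) and over the 4 MOCA mice (y axis) for the 75 tested members, coloured by complex; the dashed line marks equal SD and the star the median of all genes tested. All points but 2 lie below the line, whereas the star, at 0.143 and 0.136, lies almost on it.

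Several measures moved with the member score, and their part in it was not tested. Control mouse 2 had the largest column sum (1072797, the others 950040 to 1026277). It had the smallest TMM factor (0.932), which sets the column sum in scaled CPM and so is not a separate measure. Members are short, with a median spliced length of 809 bases and 62.7% under 1 kb, beside 2870.5 bases and 6.34% for all genes tested. The 689 tested genes under 1 kb that are not members had median deviations of -0.09, 0.15, -0.09 and 0.03 in control and 0.03, 0.03, 0.01 and 0.04 in MOCA mice. The 3503 genes over 4 kb had 0.03, -0.05, 0.04 and -0.03 in controls. Short genes that are not members thus had mouse 2 highest among controls and mice 1 and 3 lowest, as the members did, with smaller deviations. Long genes had mouse 2 lowest. Subunit genes that the name rule misses were not taken out of these length groups.

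Ribosomal protein genes gave another comparison. It is not separate from the short genes above, because any ribosomal protein gene under 1 kb is among those 689. Lengths of the ribosomal lists are not given here. Of 76 cytosolic ribosomal protein genes 70 were highest in control mouse 2, and their scores were -0.14, 0.17, -0.06 and 0.03 in control and -0.13, -0.04, -0.11 and -0.11 in MOCA mice. Of 77 mitochondrial ribosomal protein genes 25 were highest in control mouse 2, with scores of -0.07, 0.12, -0.10 and 0.05 in control and 0.09, 0.07, 0.07 and 0.07 in MOCA mice. Both lists had their highest control score in mouse 2, but as deposited their MOCA scores lay below the control mean in the cytosolic list and above it in the mitochondrial list. With columns scaled to equal sums, control mouse 2 was the highest in 46 cytosolic and 7 mitochondrial ribosomal protein genes, and MOCA mouse 4 was the highest in 28 of the latter. The MOCA scores were then -0.12, 0.03, -0.08 and -0.01 in the cytosolic list, so that MOCA mouse 2 lay above the control mean, and 0.09, 0.14, 0.10 and 0.17 in the mitochondrial list. As deposited, the endothelial marker sum was lower in every MOCA mouse (482.5 to 502.3) than in any control mouse (502.6 to 584) and the hepatocyte sum likewise, while the erythroid sum was higher (685 to 772 against 353 to 656). With columns scaled to equal sums the groups overlapped in the endothelial sum (479 to 519 against 468 to 589) and in the hepatocyte sum (96754.5 to 106490.2 against 102958 to 112876), and the erythroid sum stayed higher (674 to 812 against 358 to 611). No single marker gene was called.

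Other mitochondrial gene lists were counted in the same way. Of the 24 tested complex IV assembly factors, which insert copper and haem or join subunits, 0 were called, 18 had positive fold changes, and the median was 0.13. In 7 of them every MOCA value was above every control value (5.5% of all genes tested). Coa3, which acts early in the assembly of complex IV, was at 15.6, 18, 15.9 and 18.2 in control and 19.3, 20.6, 20.5 and 20.4 in MOCA livers (log2 change 0.25, SE 0.08, limma adjusted p = 0.166). Of the 17 tested complex I assembly factors 0 were called and 13 were positive (median 0.09); Acad9 had 56.2 ± 4.46 and 69.5 ± 8.58. Complex II, III and V assembly factors had medians of 0.06, 0.06 and 0.12 and 0 calls. These lists are not separate: Tmem70 and Tmem242 are in both the complex I and the complex V list. Atp5sl, a member counted with complex V, is also in the complex I list. Assembly factor medians were positive under each of the 3 other scalings too, and that of complex III turned to -0.02 and -0.04 without control mice 1 and 3. Subunit medians were between -0.06 and 0.00 as deposited, and the difference between the lists was not tested.

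Among the mitochondrial ribosomal proteins 1 of 77 was called. Mrpl50, of the large subunit, rose from 30.6, 31.0, 29.7 and 31.3 in control to 39.8, 41.4, 39.9 and 37.1 in MOCA livers (log2 change 0.36, SE 0.07, limma adjusted p = 0.0390). It was not called when any one of the 8 mice was left out. The mitochondrial chaperonin cofactor Hspe1 had 74.9 ± 11.2 and 97.6 ± 6.10 (0.39, limma adjusted p = 0.0976) and was called without control mouse 2, with columns scaled to equal sums and by DESeq2. Of 17 tested biogenesis regulators 0 were called and 12 were negative, with a median of -0.08; the deacetylase Sirt1 had 20.6 ± 1.81 and 16.0 ± 1.48 (-0.35, limma adjusted p = 0.106), and DESeq2 called it. The 17 TCA cycle genes had a median of 0.00 and 0 calls. The electron carrier cytochrome c, Cycs, had 64.3 ± 10.8 and 76.1 ± 3.48 (0.25, limma adjusted p = 0.254).

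Promoter sequence was examined because the members moved together across control mice. RefSeq windows from 250 bases before to 50 bases after a start (GRCm38.p6) were found for 67 members, in 73 windows, and 5 short motifs were searched on both strands. NRF1 (GCGCATGCG) was in 11% of member windows, 3.49% of windows of tested genes and 1.75% of all 32851 windows. GABPA (CCGGAAG) was in 21.9%, 17% and 8.86%, YY1 (AAGATGGCG) in 12.3%, 3.01% and 1.4%, ERR (TCAAGGTCA) in 2.74%, 0.27% and 0.423%, and the TATA box (TATAAA) in 8.22%, 7.84% and 13.6%. These are shares of windows, not of genes. Windows of 1 gene can overlap, so that a single site counts in both, as for YY1 in Atp5sl and the TATA box in Ndufa7. The NRF1 letters can match both strands at overlapping bases, and no matches to different motifs overlapped within a member window. The 250 bases before the start are shown for 4 members, Atp5b with the lowest fold change and 3 with an NRF1 or ERR match before the start; capitals mark motif matches. Atp5b (chr10:128083057-128083306, plus strand) holds none of the 5 motifs.
Atp5b: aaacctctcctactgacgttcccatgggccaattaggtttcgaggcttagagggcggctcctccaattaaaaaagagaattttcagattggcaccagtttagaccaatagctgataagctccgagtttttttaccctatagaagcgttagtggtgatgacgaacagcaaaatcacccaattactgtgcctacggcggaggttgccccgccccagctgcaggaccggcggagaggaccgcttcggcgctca
Atp5g2 (chr15:102671048-102671297, minus strand) holds NRF1 on both strands from base -42.
Atp5g2: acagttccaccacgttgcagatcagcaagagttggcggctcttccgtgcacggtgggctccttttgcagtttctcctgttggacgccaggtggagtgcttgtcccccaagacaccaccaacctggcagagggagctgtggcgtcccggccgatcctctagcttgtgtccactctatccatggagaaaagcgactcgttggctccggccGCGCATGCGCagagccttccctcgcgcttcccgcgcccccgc
Atp5g3 (chr2:73911327-73911576, minus strand) holds the ERR motif on its other strand from base -52.
Atp5g3: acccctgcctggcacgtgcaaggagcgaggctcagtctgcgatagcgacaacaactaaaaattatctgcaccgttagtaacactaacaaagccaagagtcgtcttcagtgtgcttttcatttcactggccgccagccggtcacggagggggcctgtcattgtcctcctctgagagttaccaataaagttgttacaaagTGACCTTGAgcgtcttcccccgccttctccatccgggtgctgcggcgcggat
Cox6a1 (chr5:115348959-115349208, minus strand) holds NRF1 on both strands from base -162 and GABPA on its other strand from base -16.
Cox6a1: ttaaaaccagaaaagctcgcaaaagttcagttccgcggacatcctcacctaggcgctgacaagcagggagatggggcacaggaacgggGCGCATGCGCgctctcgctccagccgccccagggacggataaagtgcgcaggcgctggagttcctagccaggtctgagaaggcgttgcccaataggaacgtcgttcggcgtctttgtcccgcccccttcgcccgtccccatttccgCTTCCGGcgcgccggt
The c subunit genes Atp5g2 and Atp5g3, whose shares are given above, thus hold different motifs in these windows. A match describes letters only, and a window without one says nothing about a factor.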

How the data were processed

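Per the labels' protocols, liver RNA was purified on RNeasy columns, and 200 ng of total RNA per mouse entered rRNA depletion and strand-marked MGIEasy library preparation. The submitters' processing notes name edgeR, RSEM, Bowtie2 and Trimmomatic 0.38 and build mm10, with no role or order. The authors deposited 1 table of scaled signal (normalised counts) for 15210 genes and 8 mice. In it 100% of values were whole multiples of 1 read within 0.001 of a read, and the scaling equals edgeR TMM factors recomputed from those reads (largest difference 0). Libraries hold 15024945 to 17101844 reads on the listed genes, and counting error was below the SD between mice in 75 of 75 tested members for control and 63 of 75 for MOCA mice. The labels number each mouse as a separate animal, and 0 columns were left unused.

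The test was limma 3.58.1 (R 4.3.3) with eBayes and trend on log2(value + 1), which understates changes of low genes. The filter asked for 1 or more in at least 4 of the 8 mice (12008 genes tested, 3202 not), with no covariate, and a call needed a Benjamini-Hochberg adjusted p under 0.05 over all of them. Because whole reads were recovered, edgeR 4.0.16 and DESeq2 1.42.0 were run on them as alternatives. On simulated reads for this comparison and 12008 genes, 200 of them changed, limma recovered 64%, 91% and 99% at changes of 1.5-, 2- and 3-fold, with 6, 11 and 16 false calls. Genes were drawn independently, with the same dispersion in both groups and no shift shared by the genes of a mouse, unlike these data. Changes as small as those of the members (log2 fold changes of -0.20 to 0.23) were not simulated.

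Named members were those called, the 3 with the smallest p and the 1 with the highest level per length in each complex, those without overlap between groups, and a preset list of core and tissue-form genes. Of each other list the 2 genes with the smallest p were eligible. Members and lists were chosen with earlier results of these data known. Spliced lengths are those of the shortest principal GENCODE M21 transcript. The median length over basic protein-coding transcripts was used first and was replaced after its lengths for some genes, and its result for the Atp5g shares, had been seen. Symbols of all 78 members matched RefSeq (GRCm38.p6). In it 25 members overlap another record. It lists 15 -ps records of member names, and reads shared with such copies could not be traced. Values of 1 complex I member are not reported singly here; it stays in the counts and medians.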

Additional observations from a re-analysis of the deposited data

Results flagged for a closer look

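Of 162 groups of 4 mice checked for 1 mouse far from the other 3, a criterion that chance meets in about 1 of 20 groups, 5 stood out. Ndufb2, a complex I membrane arm subunit, was at 22.4 in MOCA mouse 2 and at 25.8 to 26.0 in the other MOCA mice. In MOCA mouse 4, Uqcrq of complex III was at 168 (others 190 to 191) and Cox8a of complex IV at 134 (others 141 to 142). Atp5l, the ATP synthase g subunit, was at 108 in control mouse 2 and at 72.1 to 75.6 in the other controls. Atp5s, which is not a subunit of the finished enzyme, was at 1.27 in MOCA mouse 1 and at 2.71 to 2.99 in the other MOCA mice.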

How the results depend on the processing

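No member was called under any of the 22 settings, and the smallest adjusted p over them was 0.0615 (DESeq2). With 1 mouse left out the member median ran from -0.067 to 0.064 and that of complex I from -0.055 to 0.088. Shifts of the medians of the members and of each complex were below the SD of their scores pooled over both groups (0.122 for the members), but the widest exceeded the SD among MOCA mice alone (0.0179 for the members, 0.0227 for complex I). Over all genes, calls went from 80 to 169 with equal column sums (131 higher), to 30 with the replicate block (20 higher, 10 lower), to 425 with DESeq2 (222 higher, 203 lower) and to 29 to 77 with 1 mouse left out (21 to 42 higher, 8 to 35 lower); lower calls were 51 with upper quartile scaling and 53 with robust eBayes. The replicate number did not pair the mice (correlations of same-numbered deviations -0.074, -0.001, 0.036 and -0.044). Mitochondrial ribosomal proteins had 2 calls with equal sums, 3 with DESeq2, 0 with eBayes without trend, 0 with the replicate block and 0 with any mouse left out. Proteases and chaperones had 1 call with equal sums, 1 with DESeq2 and, over fits without 1 mouse, 0 to 1 (1 without control mouse 2). Biogenesis regulators had 1 call with DESeq2 and a median of -0.029 with equal sums (-0.12 to -0.055 with 1 mouse left out). The median of complex II assembly factors was 0.15 with a minimum value of 5, and that of complex III factors ran from -0.038 (without control mouse 3) to 0.13 with 1 mouse left out. Of 75 members 41 changed sign in at least 1 fit with a mouse left out; 20 of them turned positive without control mouse 2, and the other 21 turned negative without another mouse. Among the genes with the smallest p or highest level of each list, signs turned with 1 mouse left out for Sdhc (-0.025 to 0.098), Uqcrh (-0.17 to 0.053), Usmg5 (-0.049 to 0.096) and Atpif1 (-0.053 to 0.072, and -0.012 with upper quartile scaling). The Atp5g1 share difference ran from -1.40 to 0.195 points with 1 mouse left out. By median transcript length the Atp5g2 and Atp5g3 differences were -2.62 and 2.77 and passed. Causes of these shifts were not tested. Cox7a1, Cox6b2 and Ndufa4l2 were too low to test, Atp5s rested on 20 to 49 reads a mouse, and in 12 members counting error reached the SD among MOCA mice.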
